A study of Mus musculus with 17 samples.

Results

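Vtn, Cspg4, Anpep, Atp13a5, Higd1b and Ndufa4l2 are genes that mark pericytes, and their mRNA was followed in 2 sorts of cerebral arteriolar smooth muscle cells (aSMCs), in cortex and in astrocytes. The members were the 6 listed symbols, all of which were found among the 21640 genes of the count matrix, and all 6 passed the filter on low counts. The question was how far the 2 aSMC sorts share the expression of these genes. The libraries came from 4 groups of mouse brain samples. The aSMC Ai47 group held 6 libraries (replicates 1 to 6) of EGFP-positive cells from SMACreER:Ai47 mice, taken from adult brains enriched for vessels about 1 month after tamoxifen, with CD31-positive and CD45-positive cells removed. The aSMC Ai14 group held 2 libraries (replicates 7 and 8) of tdTomato-positive cells from SMACreER:Ai14 mice, for which the labels give no age and no negative selection. In both aSMC groups the SMA promoter drives the inducible Cre, so any cell that used this promoter at the time of tamoxifen could carry the reporter. The cortex group held 6 homogenates labelled WT, although the study describes its cortex control as a fraction of the same dissociated cortices kept before sorting. The astrocyte group held 3 libraries of tdTomato-positive cells from hGFAPCreER:Ai14 mice, in which the hGFAP promoter drives the inducible Cre. The labels do not say whether replicates came from separate mice, although a figure legend of the study gives 6 mice each for aSMCs and cortex. Which mouse gave which library is not stated. The p-values thus cover only how far these libraries vary among themselves, part of which may be technical.

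Pericytes and smooth muscle cells are the mural cells of blood vessels. Smooth muscle cells form contractile rings on arterioles, whereas pericytes lie along capillaries, share a basement membrane with the endothelium and help to maintain the blood-brain barrier. Many genes used to mark pericytes are transcribed to some extent in smooth muscle cells too, so a marker list does not by itself separate these cells. The members fall into 4 kinds of protein. Vtn encodes vitronectin, a secreted glycoprotein of the extracellular matrix that binds integrins. Cspg4 encodes NG2, a transmembrane proteoglycan of mural cells that also marks oligodendrocyte precursors, and Anpep encodes the membrane aminopeptidase CD13. Atp13a5 encodes a P5-type transport ATPase. Higd1b and Ndufa4l2 encode small mitochondrial proteins, and Ndufa4l2 is known as a target of the hypoxia response.

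In GENCODE M21 on GRCm38, each member is a protein-coding gene. Vtn (ENSMUSG00000017344.4) lies at chr11:78499091-78502324 on the plus strand and Higd1b (ENSMUSG00000020928.14) at chr11:102835849-102838040 on the plus strand. Cspg4 (ENSMUSG00000032911.6) lies at chr9:56865033-56899870 on the plus strand and Atp13a5 (ENSMUSG00000048939.13) at chr16:29231851-29378732 on the minus strand. Anpep (ENSMUSG00000039062.15) spans chr7:79821803-79861059 on the minus strand. Ndufa4l2 (ENSMUSG00000040280.10) spans chr10:127514967-127517154 on the plus strand, and its last exon overlaps an exon of the gene Shmt2, which spans chr10:127517123-127522444 on the minus strand. No source used here gives the strand setting of the counting, so reads from that overlap cannot be assigned to either gene.

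RefSeq promoter sequence was at hand for 4 of the 6 members. It is shown because these 4 genes had different patterns over the groups although all of them count as pericyte markers. Each run is on GRCm38.p6, reads 5′ to 3′ on the gene's strand and begins 250 bases before the RefSeq start. It holds only bases that no annotated exon covers, so it ends at the RefSeq start for Atp13a5 and Anpep and farther upstream, before the first GENCODE exon, for Vtn and Cspg4. Capitals mark a match to one of the motifs searched. The runs are chr11:78498870-78499090 for Vtn, chr9:56864854-56865032 for Cspg4, chr16:29378733-29378982 for Atp13a5 and chr7:79848211-79848460 for Anpep.
Vtn: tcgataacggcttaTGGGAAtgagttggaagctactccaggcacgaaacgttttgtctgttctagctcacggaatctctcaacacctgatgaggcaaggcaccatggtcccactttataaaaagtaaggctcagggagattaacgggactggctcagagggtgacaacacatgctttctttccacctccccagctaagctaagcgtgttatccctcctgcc
Cspg4: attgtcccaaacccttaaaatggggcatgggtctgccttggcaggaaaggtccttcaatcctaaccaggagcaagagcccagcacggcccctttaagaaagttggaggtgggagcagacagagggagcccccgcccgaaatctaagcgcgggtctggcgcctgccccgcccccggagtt
Atp13a5: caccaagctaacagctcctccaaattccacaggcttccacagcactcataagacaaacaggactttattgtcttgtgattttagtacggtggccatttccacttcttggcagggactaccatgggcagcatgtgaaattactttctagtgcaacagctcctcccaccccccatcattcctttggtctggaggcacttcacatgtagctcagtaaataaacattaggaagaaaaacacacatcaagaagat
Anpep: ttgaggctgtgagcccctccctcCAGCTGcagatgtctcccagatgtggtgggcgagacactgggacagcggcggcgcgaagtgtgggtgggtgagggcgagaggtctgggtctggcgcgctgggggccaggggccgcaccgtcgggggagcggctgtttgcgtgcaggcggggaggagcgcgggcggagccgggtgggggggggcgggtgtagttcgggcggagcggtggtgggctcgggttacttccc
The Anpep run lies within the GENCODE span of the gene, upstream of the RefSeq start. The windows differed in base composition, with a GC content of 72.8% for Anpep, 60.3% for Cspg4, 49.8% for Vtn and 44.8% for Atp13a5. Both strands of the full windows of 250 bases were searched for the CArG box bound by SRF, for TGGGAA (the core of the RBPJ site), ACGTG (the core of the hypoxia response element) and CAGCTG (an E-box). Vtn held TGGGAA with its first base 236 bases before the start, and Anpep held CAGCTG 227 bases before it. Cspg4 and Atp13a5 held none of these letters in this window. Of 32536 mouse promoter windows of the same length, 21.6% held TGGGAA, 13.1% CAGCTG, 16.7% ACGTG and 1.48% a CArG box.

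The libraries differed in ways that follow the groups. Total counts ran from 41499087 to 53643624 in aSMC Ai47, were 14870507 and 14979228 in aSMC Ai14, and ran from 5397905 to 7288036 in cortex and from 4537137 to 7390630 in astrocytes. The share of mitochondrial genes was 0.214% to 0.559% in aSMC Ai47, 16.8% and 17.6% in aSMC Ai14, 35.7% to 72.9% in cortex and 10.7% to 12.5% in astrocytes. Levels are given as CPM, in which each count is divided by the library size after trimmed mean of M-values (TMM) scaling and brought to a common total. The TMM factors were 0.423 to 0.551 in aSMC Ai47 and 2.21 in both aSMC Ai14 libraries. A difference between the sorts in CPM therefore depends on the scaling more than a ratio of genes within a library does. In 30 of 7220 genes with a mean of at least 100 counts the 6 aSMC Ai47 columns lay within a factor of 1.01 of each other, against 0 of 3967 such genes in cortex. None of the members was among those 30 genes, since the highest of the 6 raw counts was from 1.31 to 19 times the lowest. The sorts carried smooth muscle genes, as the 10 listed genes of that kind summed to 6223 to 7549 CPM in aSMC Ai47, 10640 and 11505 CPM in aSMC Ai14 and 49.8 to 192 CPM in cortex. Depth, mitochondrial share and reporter line cannot be told apart from the groups.

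Together the 6 pericyte markers summed to 888 ± 115 CPM in aSMC Ai47 (SD, n = 6), 513 ± 56.1 CPM in aSMC Ai14 (SD, n = 2), 39.8 ± 16.8 CPM in cortex (SD, n = 6) and 1.62 ± 1.52 CPM in astrocytes (SD, n = 3). Vtn, Cspg4 and Ndufa4l2 were higher than cortex in both aSMC sorts, by 2.57 to 5.17 on the log2 scale. In aSMC Ai14 the calls of Vtn and Ndufa4l2 were lost in a fit without the aSMC Ai47 libraries, while that of Cspg4 held. Atp13a5 was higher than cortex in aSMC Ai47, by 5.31, and stood 4.32 above aSMC Ai14. Anpep went the other way between the sorts, with aSMC Ai47 4.48 below aSMC Ai14 on the log2 scale. Against cortex, 4 of 6 members were higher in aSMC Ai47 and 0 lower, where 24.1% of all 14927 genes tested were higher and 26.5% lower (edgeR, Benjamini-Hochberg adjusted p under 0.05). In aSMC Ai14, 3 of 6 members were higher than cortex and 0 lower, where 3.97% of all genes were higher and 2% lower. In bulk RNA, fewer cells of a type and less RNA per cell cannot be told apart.

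**Figure D1:**
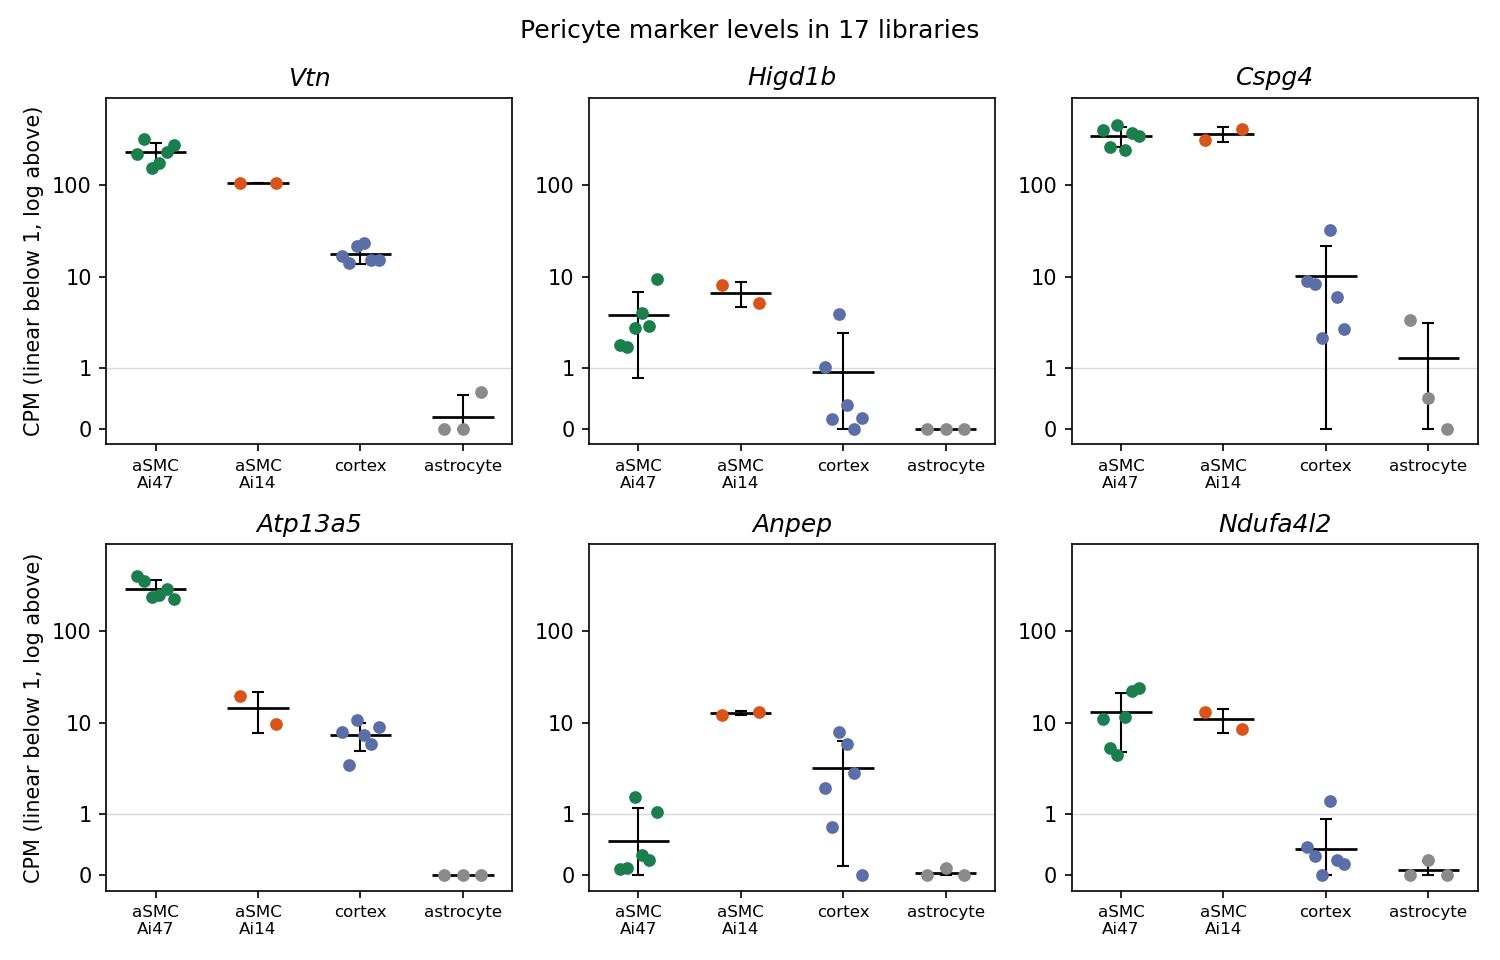
Level of each pericyte marker in the 17 libraries, with CPM on a vertical axis that is linear below 1 and logarithmic above. Points are libraries, long bars are group means and whiskers are 1 SD, with the lower whisker stopped at 0. The 6 aSMC Ai47 libraries sit above both aSMC Ai14 libraries for Atp13a5 and below both for Anpep.

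Vtn, the secreted vitronectin, was abundant in both sorts. Its level in aSMC Ai47 had a lowest value of 156, a median of 225 and a highest value of 318 CPM, and both aSMC Ai14 libraries stood at 105 CPM. In cortex the lowest was 14.1, the median 16.1 and the highest 23.1 CPM, and the astrocyte libraries held 0, 0 and 0.606 CPM. All aSMC libraries thus lay above all cortex libraries, and the aSMC Ai47 libraries lay above the aSMC Ai14 libraries without overlap. Against cortex the log2 difference was 3.70 (SE 0.557, edgeR adjusted p = 1.58e-05) in aSMC Ai47 and 2.57 (SE 0.645, adjusted p = 0.0192) in aSMC Ai14. The second call was lost in 12 of 17 fits that each left out 1 library (replicates 2 to 6 of aSMC Ai47, 7 and 8 of aSMC Ai14, and 1, 2, 3, 5 and 6 of cortex), which gave 2.21 to 2.35, and with relative log expression scaling (2.03, adjusted p = 0.0773), no filter (2.36, adjusted p = 0.0521), the aSMC Ai47 columns as 1 library (2.29, adjusted p = 0.133) or no aSMC Ai47 libraries (2.26, adjusted p = 0.143). Leaving out a library also moved the TMM reference from an astrocyte to a cortex library, and with a cortex reference and all 17 libraries the difference was 2.27 (edgeR adjusted p = 0.0414). Between the sorts the difference of 1.12 did not pass the test (SE 0.758, edgeR adjusted p = 0.301), but it passed with DESeq2 (1.51, adjusted p = 0.0224) and with only the 2 groups compared (1.25, edgeR adjusted p = 0.00884), and it turned to -1.09 with library totals alone.

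Cspg4, the NG2 proteoglycan, had overlapping levels in the sorts, far above cortex. Its lowest, median and highest values in aSMC Ai47 were 245, 358 and 460 CPM, and the aSMC Ai14 libraries had 315 and 411 CPM. Cortex ran from 2.12 CPM through a median of 7.15 CPM to 32.4 CPM, the highest being replicate 4, without which the cortex mean of 10.1 CPM became 5.62 CPM. The astrocyte libraries had 3.37, 0.507 and 0 CPM. Every aSMC library was higher than every cortex library, and the sorts overlapped. Against cortex the log2 difference was 5.11 (SE 0.835, edgeR adjusted p = 3.95e-05) in aSMC Ai47 and 5.17 (SE 0.926, edgeR adjusted p = 0.00132) in aSMC Ai14. Between the sorts it was -0.07 with an SE of 0.985 and an edgeR adjusted p of 0.979, a value whose sign changed with the scaling, and it was -2.28 with library totals alone (edgeR adjusted p = 0.0519). Because Cspg4 also marks oligodendrocyte precursors, the 8 listed genes of that type were summed: they reached 0.400 to 7.52 CPM in aSMC Ai47, 2.89 and 10.4 CPM in aSMC Ai14 and 39.3 to 113 CPM in cortex. Of these 8 genes, 6 had counts in aSMC Ai47, where Pdgfra and Olig1 were at 0 in all 6 libraries, and all 8 had counts in aSMC Ai14.

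Anpep, the aminopeptidase CD13, was the member with the lowest level in aSMC Ai47. The lowest, median and highest values there were 0.105, 0.287 and 1.54 CPM, from 2 to 38 raw counts, and the mean of 0.565 CPM became 0.370 CPM without replicate 3. The aSMC Ai14 libraries had 12.4 and 13.3 CPM from 406 and 439 counts. Cortex ran from 0 through a median of 2.39 to 7.99 CPM, and the astrocyte libraries had 0, 0.127 and 0 CPM. The aSMC Ai14 libraries were above all others, while aSMC Ai47 and cortex overlapped. The difference between the sorts was -4.48 on the log2 scale (SE 1.31, edgeR adjusted p = 0.0157). That call held in 11 of 17 fits that left out 1 library, over which the difference ran from -4.65 to -3.79, and was lost without any one of replicates 1, 2, 4, 5, 7 and 8 of the aSMC libraries. With the 6 aSMC Ai47 columns averaged into 1 library the difference between the sorts was -4.15 and the call was lost. Neither difference from cortex passed the test, with -2.50 in aSMC Ai47 (SE 1.07, edgeR adjusted p = 0.0569) and 1.98 in aSMC Ai14 (SE 1.31, edgeR adjusted p = 0.434). The first of these passed without replicate 3 of aSMC Ai47 (-2.99, edgeR adjusted p = 0.0402) or replicate 6 of cortex (-2.66, edgeR adjusted p = 0.0347).

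Atp13a5, the transport ATPase, had the smallest adjusted p of the 6 members between the sorts. Its level in aSMC Ai47 had a lowest value of 228, a median of 272 and a highest value of 400 CPM, from 5838 to 7641 raw counts in a library. The aSMC Ai14 libraries had 19.7 and 9.73 CPM, from 648 and 321 counts. Cortex ran from 3.50 through a median of 7.65 to 10.7 CPM, and no astrocyte library held a count. The aSMC Ai47 libraries were above every other library, whereas aSMC Ai14 overlapped with cortex. Against cortex the log2 difference was 5.31 in aSMC Ai47 (SE 0.469, edgeR adjusted p = 3.62e-08) and 0.99 in aSMC Ai14 (SE 0.527, edgeR adjusted p = 0.310). The difference between the sorts was 4.32 (SE 0.730, edgeR adjusted p = 0.000327) and passed in 17 of 17 fits without 1 library, from 4.33 to 5.29. With library totals alone it was 2.09 (edgeR adjusted p = 0.0342), and with the 6 aSMC Ai47 columns averaged into 1 library it was 4.54 (edgeR adjusted p = 0.0499).

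Higd1b and Ndufa4l2, the mitochondrial members, were lower in level per length than Vtn and Cspg4 in both sorts, and in aSMC Ai47 they varied more for their mean. Ndufa4l2 had a lowest, median and highest value of 4.5, 11.3 and 23.9 CPM in aSMC Ai47, and 13.2 and 8.64 CPM in aSMC Ai14. Cortex held 0 to 1.38 CPM with a median of 0.288 CPM, and its mean of 0.434 CPM became 0.244 CPM without replicate 4. The astrocyte libraries had 0, 0.254 and 0 CPM. All aSMC libraries were above all cortex libraries and the sorts overlapped. Against cortex Ndufa4l2 differed by 4.93 on the log2 scale in aSMC Ai47 (SE 1.03, edgeR adjusted p = 0.000501) and by 4.66 in aSMC Ai14 (SE 1.14, edgeR adjusted p = 0.0169). The second call held in 11 of 17 fits without 1 library and was lost without replicate 7 or 8 of aSMC Ai14 or replicate 1, 2, 5 or 6 of cortex, with 4.08 to 4.64, and it was lost with the aSMC Ai47 columns as 1 library (4.36, edgeR adjusted p = 0.100) and with no aSMC Ai47 libraries (4.33, edgeR adjusted p = 0.105). The sorts differed by 0.27 (SE 1.22, edgeR adjusted p = 0.910), or by -1.90 with library totals alone.

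Higd1b had a lowest value of 1.71, a median of 2.81 and a highest value of 9.53 CPM in aSMC Ai47, and 8.07 and 5.21 CPM in aSMC Ai14. Cortex ran from 0 through a median of 0.292 CPM to 3.87 CPM, and its mean of 0.940 CPM became 0.354 CPM without replicate 3. No astrocyte library held a count of it. The aSMC Ai14 libraries were above all cortex libraries, while aSMC Ai47 overlapped with both. No Higd1b difference among these 3 groups passed the test: against cortex it was 1.97 in aSMC Ai47 (SE 1.01, edgeR adjusted p = 0.113) and 2.78 in aSMC Ai14 (SE 1.25, edgeR adjusted p = 0.217), and between the sorts -0.81 (SE 1.3, edgeR adjusted p = 0.699). Without replicate 3 of cortex the first became 3.56 and passed (edgeR adjusted p = 0.00869).

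**Figure D2:**
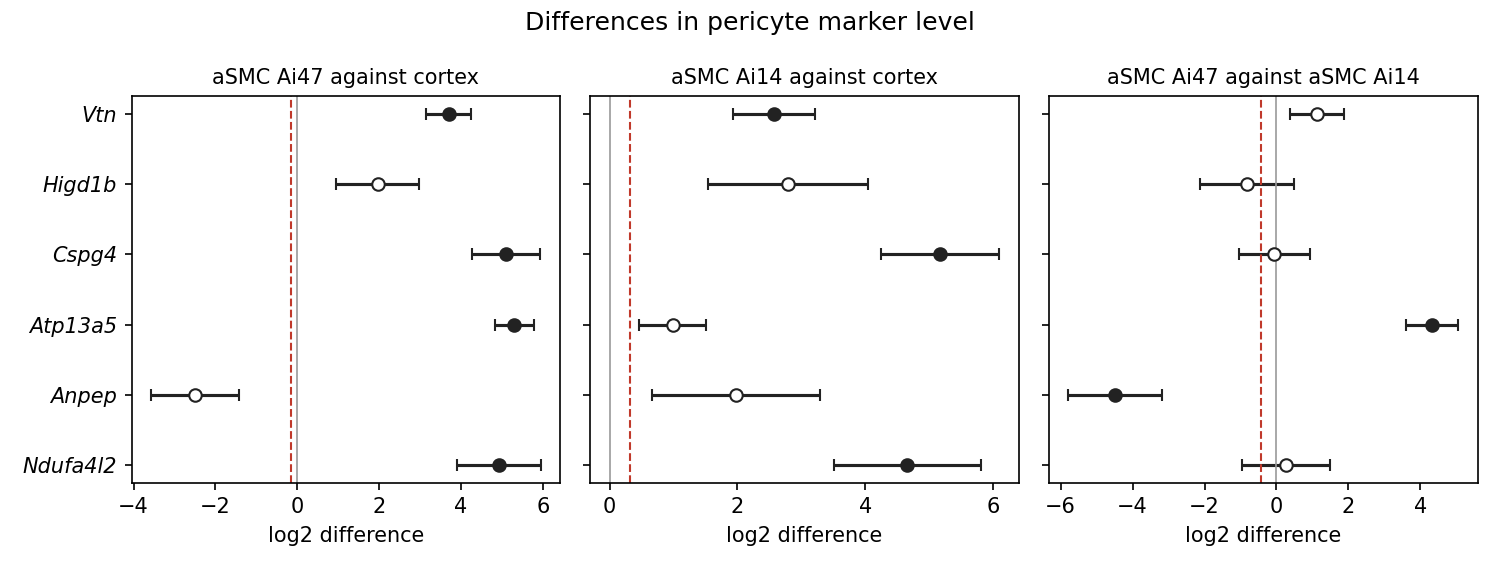
Log2 difference in level of each pericyte marker for 3 comparisons, each on its own horizontal scale, with bars of 1 SE from the edgeR fit. Filled points have an adjusted p under 0.05, the grey line marks 0 and the dashed red line marks the median of all 14927 genes. Atp13a5 at 4.32 and Anpep at -4.48 are the filled points between the sorts.

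Between the sorts, 1 of 6 members was higher in aSMC Ai47 (Atp13a5) and 1 lower (Anpep), where 9.55% of all genes tested were higher and 16% lower. The median difference of the members was 0.10, against -0.42 over all genes. Against cortex the members' median was 4.31 in aSMC Ai47, beside -0.16 over all genes, and 2.68 in aSMC Ai14, beside 0.32 over all genes. Both comparisons use the same cortex libraries. The all-gene median of the comparison between the sorts moved to -2.59 with library totals alone, and to 0.03 when a cortex library was the TMM reference. Of the 6 members, 1 higher and 1 lower was also the outcome under both of these settings.

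Shares within a library need no scaling between libraries and gave a similar picture for Atp13a5. Atp13a5 made up 33.0% ± 5.57 of the counts of the 6 members in aSMC Ai47 (SD, n = 6), from 25.7% to 38.9%, but 4.17% and 1.76% in the aSMC Ai14 libraries and 20.1% ± 8.17 in cortex (SD, n = 6). Cspg4 took 39.1% ± 8.31 in aSMC Ai47 (SD, n = 6), 66.6% and 74.3% in aSMC Ai14 and 22.5% ± 14.9 in cortex (SD, n = 6). Vtn took 25.8% ± 5.94 in aSMC Ai47 (SD, n = 6), 22.2% and 19.1% in aSMC Ai14 and 47.0% ± 7.91 in cortex (SD, n = 6). The sorts therefore overlapped in the share of Vtn, but not in those of Cspg4 and Atp13a5. Anpep took 0.0102% to 0.179% in aSMC Ai47, 2.61% and 2.41% in aSMC Ai14 and 0% to 17.3% in cortex. For each Vtn count there were 0.819 to 1.85 Atp13a5 counts in aSMC Ai47, 0.188 and 0.0923 in aSMC Ai14 and 0.249 to 0.6 in cortex. Atp13a5 relative to Vtn was thus lower in both aSMC Ai14 libraries than in any cortex library, as well as lower than in any aSMC Ai47 library.

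**Figure D3:**
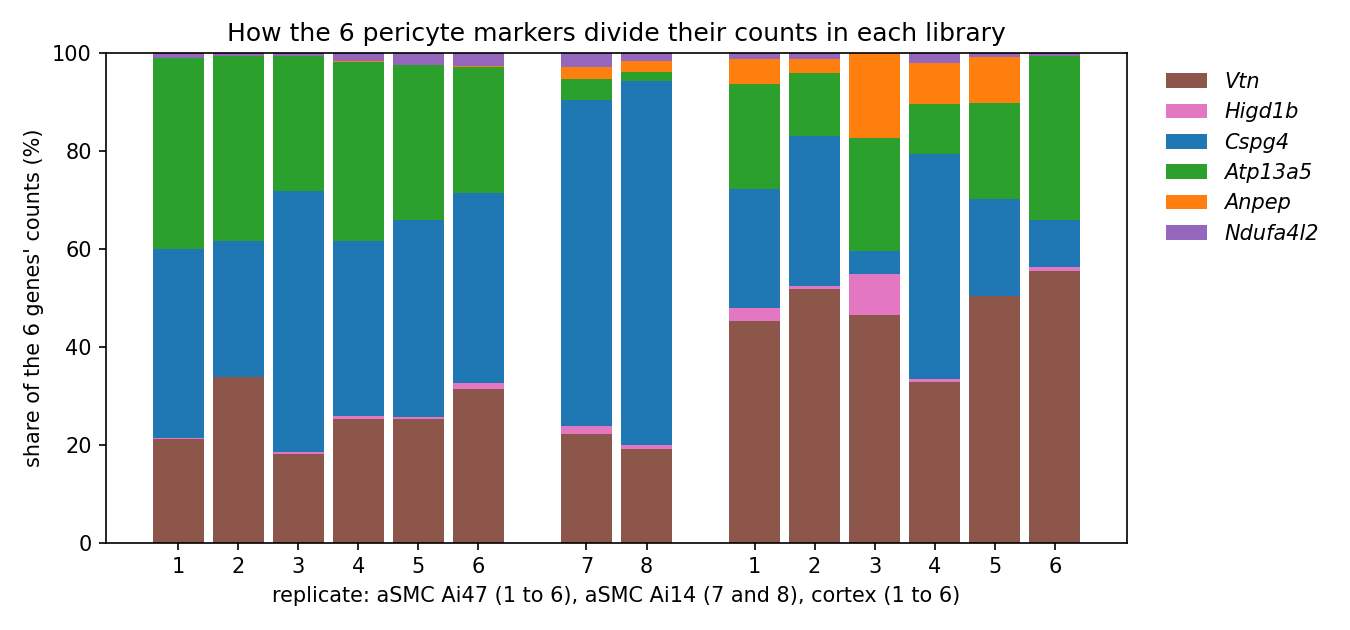
Share of the summed counts of the 6 pericyte markers that each marker took, in percent, with 1 bar per library of aSMC Ai47, aSMC Ai14 and cortex. The green block of Atp13a5 spans 25.7% to 38.9% in the aSMC Ai47 libraries and 1.76% and 4.17% in the aSMC Ai14 libraries, and the blue block of Cspg4 is larger in both aSMC Ai14 libraries (66.6% and 74.3%) than in any aSMC Ai47 library. Astrocyte libraries are not drawn, and their shares would rest on 7 to 36 counts.

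Levels can be compared between genes only per length, so CPM was divided by the length of all annotated exons in kb. In aSMC Ai47 the order was Vtn at 113 ± 30.3 CPM per kb, Atp13a5 at 63.1 ± 15, Cspg4 at 29.1 ± 6.88, Ndufa4l2 at 12 ± 7.57, Higd1b at 4.45 ± 3.47 and Anpep at 0.137 ± 0.144 (SD, n = 6 for each). Ndufa4l2 and Higd1b lay within the sum of their SDs of each other. In aSMC Ai14 Vtn led at 51.8 ± 0.144 CPM per kb, followed by Cspg4 at 30.4 ± 5.65, Ndufa4l2 at 9.98 ± 2.95 and Higd1b at 7.84 ± 2.38, with Atp13a5 at 3.16 ± 1.52 and Anpep at 3.10 ± 0.162 last (SD, n = 2 for each). The neighbours Ndufa4l2 and Higd1b, and likewise Atp13a5 and Anpep, did not differ beyond their spread there. In cortex Vtn stood at 8.70 ± 1.84 CPM per kb (SD, n = 6) and the other 5 members between 0.397 and 1.59 CPM per kb, where neighbours in the order did not differ beyond their spread. Vtn had the highest level per length in all 3 of these groups, and Atp13a5 was second in aSMC Ai47 but among the last pair in aSMC Ai14.

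The astrocyte libraries held almost none of the members. Their 8 listed astrocyte genes summed to 1072 to 1715 CPM, beside 3262 to 17601 CPM in cortex. Against cortex 5 of 6 members were lower in astrocytes and 0 higher, where 19.8% of all genes tested were lower and 14.6% higher (edgeR), and Ndufa4l2 was the exception at an adjusted p of 0.166. With the replicate block the calls of Atp13a5 and Vtn held, and those of Anpep (edgeR adjusted p = 0.104), Cspg4 (edgeR adjusted p = 0.0604) and Higd1b (edgeR adjusted p = 0.0503) were lost. Higd1b and Atp13a5 had 0 counts in all 3 astrocyte libraries, which allows up to 0.0782 CPM (3 counts over the group, counting error only). At that limit, and with TMM scaling, Atp13a5 was at least 3760-fold higher in aSMC Ai47, at least 188-fold higher in aSMC Ai14 and at least 94.9-fold higher in cortex. Higd1b was at least 48.2-fold, 84.9-fold and 12-fold higher in these groups. Without replicate 7 the bound for Atp13a5 in aSMC Ai14 was 124-fold, and without replicate 3 that for Higd1b in cortex was 4.53-fold. All of these bounds depend on the scaling. The TMM factors were 0.423 to 0.551 in aSMC Ai47 and 1.52 to 2.68 in astrocytes. With library totals alone the Atp13a5 mean in aSMC Ai47 was 138 CPM in place of 294 CPM, so the bounds are not lower limits under every scaling. Anpep had 1 count over the astrocyte libraries and a ratio to them of 23.5 in aSMC Ai47 (95% counting interval 4.10 to 937) and 492 in aSMC Ai14 (88.1 to 19462). Against astrocytes, 5 of 6 members were higher in aSMC Ai47 and 0 lower, where 26.1% of all genes were higher and 23.8% lower, and 6 of 6 were higher in aSMC Ai14, where 13.6% of all genes were higher and 3.56% lower. Anpep in aSMC Ai47 was the member that did not pass (edgeR adjusted p = 0.0679).

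Most other genes used to mark pericytes were higher in both sorts than in cortex. Of 20 such genes, 17 were tested. Against cortex 14 were higher and 1 lower in aSMC Ai47, with a median log2 difference of 3.32, and 12 were higher and 0 lower in aSMC Ai14, with a median of 4.55, where 24.1% and 3.97% of all genes were higher. The count of higher genes in aSMC Ai47 was 9 with library totals alone, and that in aSMC Ai14 was 10 with relative log expression scaling. Between the sorts 0 were higher in aSMC Ai47 and 4 lower, where 9.55% of all genes tested were higher and 16% lower. The median was -1.23 beside -0.42 over all genes. The 4 were Pdgfrb, the receptor through which endothelial PDGF-B recruits mural cells (-2.48, edgeR adjusted p = 0.0470), Notch3, a Notch receptor of mural cells (-2.07, edgeR adjusted p = 0.0127), Cd248, the surface protein endosialin (-3.30, edgeR adjusted p = 0.00570), and Mcam, the adhesion molecule CD146 (-3.14, edgeR adjusted p = 0.0209). That number fell to 1, Cd248, with a cortex library as the TMM reference, where Pdgfrb had -1.91 (edgeR adjusted p = 0.143), Notch3 -1.60 (edgeR adjusted p = 0.0573) and Mcam -2.64 (edgeR adjusted p = 0.0542), and it rose to 11 with library totals alone. Of 17 fits without 1 library, 16 lost the Pdgfrb call, 13 that of Notch3 and 11 that of Mcam, all with a cortex library as the TMM reference. The Cd248 call was lost without replicate 7 (-2.98, edgeR adjusted p = 0.0970) or replicate 8 (-2.82, edgeR adjusted p = 0.118) of aSMC Ai14. Pdgfrb stood at 39.6 ± 38.9 CPM in aSMC Ai47 (SD, n = 6), 238 and 203 CPM in aSMC Ai14 and 9.98 ± 6.2 CPM in cortex (SD, n = 6). Rgs5, a regulator of G-protein signalling in mural cells, stood at 3495 ± 1183 CPM in aSMC Ai47 (SD, n = 6), 9763 and 6608 CPM in aSMC Ai14 and 350 ± 151 CPM in cortex (SD, n = 6). Its log2 difference between the sorts, -1.23, did not pass (edgeR adjusted p = 0.0894), but passed with only the 2 groups compared (-1.08, edgeR adjusted p = 0.0305) and with library totals alone (-3.42, edgeR adjusted p = 3.26e-05). Abcc9, the sulfonylurea receptor subunit of the vascular ATP-sensitive potassium channel, was the gene lower in aSMC Ai47 than in cortex (-3.07, edgeR adjusted p = 0.00451). That call was lost with the replicate block (-2.51, edgeR adjusted p = 0.0650) and with the aSMC Ai47 columns as 1 library (-3.18, edgeR adjusted p = 0.353), and it did not pass in aSMC Ai14 (-1.15, edgeR adjusted p = 0.659). Kcnj8, which encodes the pore of that channel, did not pass in either sort and had medians of 0.405, 0.683 and 0.384 CPM in aSMC Ai47, aSMC Ai14 and cortex. It reached 11.6 CPM in replicate 1 of aSMC Ai47, and the mean of 2.32 CPM there became 0.460 CPM without that library.

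**Figure D4:**
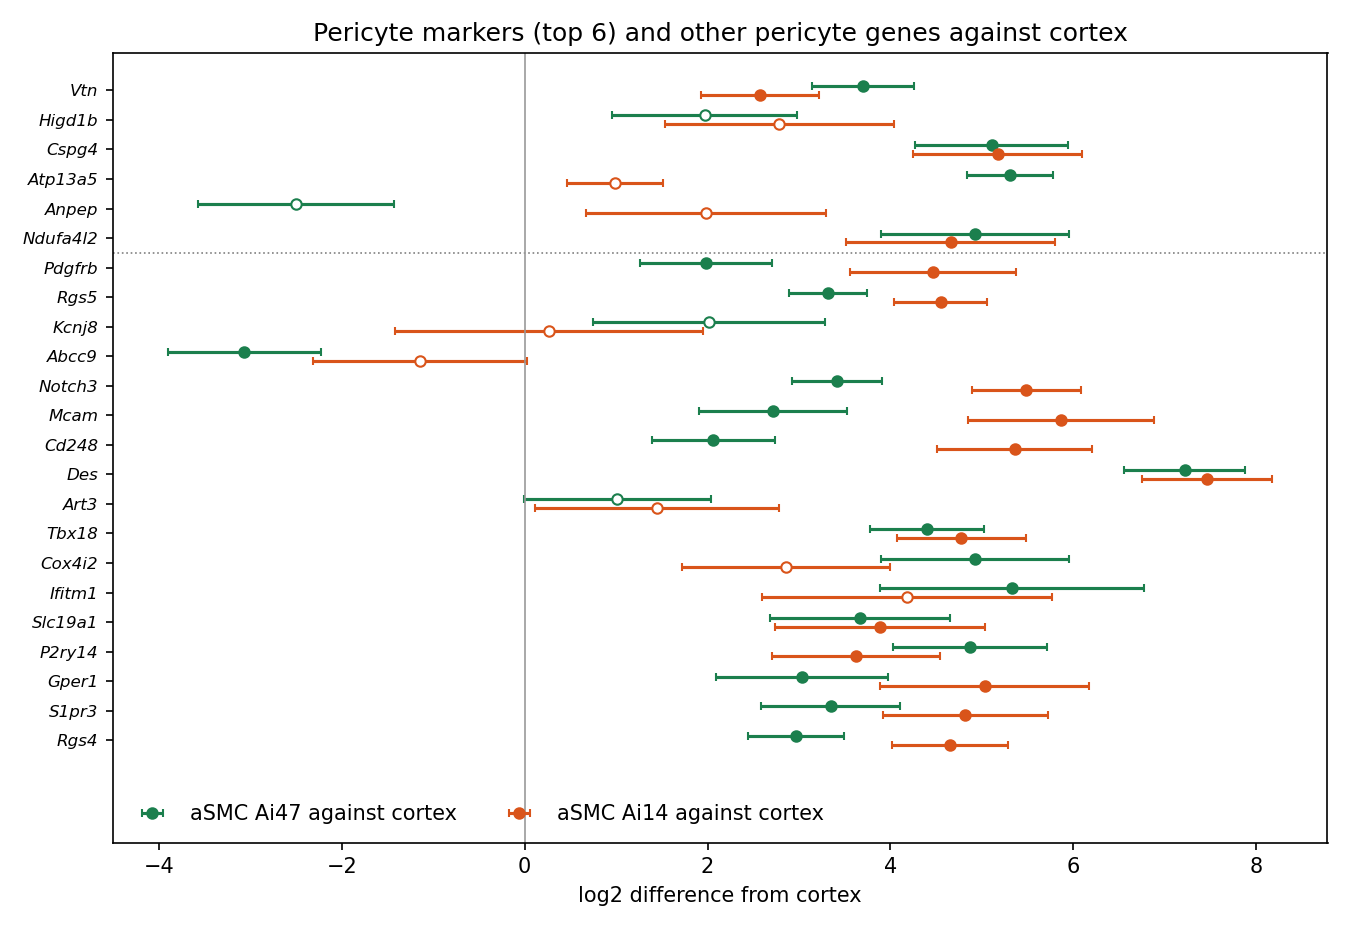
Log2 difference from cortex of the 6 pericyte markers, above the dotted line, and of 17 other pericyte genes, in aSMC Ai47 (green) and aSMC Ai14 (orange), with bars of 1 SE. Filled points have an edgeR adjusted p under 0.05. Pdgfrb, Notch3, Mcam and Cd248 lie farther right in aSMC Ai14, whereas Atp13a5 lies at 5.31 in aSMC Ai47 and 0.99 in aSMC Ai14.

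Counts were also set against those of Pdgfrb in the same library. There were 1.95 to 34.2 Vtn counts for each Pdgfrb count in aSMC Ai47, 0.442 and 0.518 in aSMC Ai14 and 0.889 to 6.56 in cortex. For Atp13a5 the ratio was 3.61 to 47.9 in aSMC Ai47, 0.0830 and 0.0478 in aSMC Ai14 and 0.221 to 2.97 in cortex. Both members were thus lower for their Pdgfrb in aSMC Ai14 than in any library of aSMC Ai47 or cortex. Cspg4 and Ndufa4l2 were also lower for their Pdgfrb in both aSMC Ai14 libraries than in any aSMC Ai47 library. Cspg4 had 3.59 to 92.9 in aSMC Ai47, 1.33 and 2.02 in aSMC Ai14 and 0.304 to 2.56 in cortex. Ndufa4l2 had 0.0991 to 3.28, 0.0556 and 0.0425, and 0 to 0.111 in these groups. Higd1b and Anpep did not divide the sorts by this ratio: Higd1b had 0.0160 to 0.557 in aSMC Ai47 and 0.0340 and 0.0256 in aSMC Ai14, and Anpep had 0.000944 to 0.311 and 0.0520 and 0.0654. With Rgs5 as the reference the order stayed for Atp13a5, with 0.0538 to 0.176 in aSMC Ai47, 0.00202 and 0.00147 in aSMC Ai14 and 0.0114 to 0.0326 in cortex. For Vtn this ratio was 0.0429 to 0.134 in aSMC Ai47, 0.0108 and 0.0159 in aSMC Ai14 and 0.0360 to 0.0653 in cortex. Cspg4 per Rgs5 was 0.0682 to 0.175 in aSMC Ai47 and 0.0323 and 0.0621 in aSMC Ai14, and the sorts overlapped for Higd1b and Ndufa4l2. Anpep per Rgs5 went the other way, with 4.46e-05 to 0.00043 in aSMC Ai47 and 0.00127 and 0.00201 in aSMC Ai14. Pdgfrb itself varied from 122 to 2119 raw counts among the aSMC Ai47 libraries. The mean of Pdgfrb was 39.6 CPM in aSMC Ai47 and 220 CPM in aSMC Ai14. In the same order the means were 347 and 363 CPM for Cspg4 and 13.1 and 10.9 CPM for Ndufa4l2. A ratio to Pdgfrb thus reflects the level of Pdgfrb as well as that of the member.

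Markers of other cell types moved with the sorts too. The 6 listed fibroblast genes, all with counts in both sorts, summed to 1536 to 2365 CPM in aSMC Ai47, 105 and 143 CPM in aSMC Ai14 and 16.4 to 101 CPM in cortex. Nearly all of that sum in aSMC Ai47 was Col1a1, the collagen I chain, at 1739 ± 347 CPM (SD, n = 6) from raw counts of 39417 to 40086 in each of the 6 columns, and its part in the differences of the members was not tested. The 11 endothelial genes, all with counts in both sorts, summed to 120 to 282 CPM in aSMC Ai47, 306 and 339 CPM in aSMC Ai14 and 431 to 1353 CPM in cortex. In aSMC Ai47, 1 of these 11 genes was higher than in aSMC Ai14 and 3 were lower, beside 9.55% and 16% of all genes tested. Against cortex 0 were higher and 7 lower in aSMC Ai47, beside 24.1% and 26.5%. Of the 11 genes Cldn5, a tight junction gene, stood at 32.3 ± 9.38 CPM in aSMC Ai47 (SD, n = 6), 3.10 and 1.61 CPM in aSMC Ai14 and a median of 17.8 CPM in cortex. Their part in the differences of the members was not tested. Of 8 neuronal genes, Syn1, Rbfox3 and Slc17a7 were at 0 in aSMC Ai47, and the list summed to 1.22 to 2.88 CPM there, 17.2 and 19.8 CPM in aSMC Ai14 and 474 to 846 CPM in cortex. Of 8 genes of microglia and macrophages, P2ry12 and Aif1 were at 0 in aSMC Ai47, and the list summed to 2.18 to 43.0 CPM there, 18 and 43.4 CPM in aSMC Ai14 and 149 to 1457 CPM in cortex. Of 6 oligodendrocyte genes, Mog was at 0 in aSMC Ai47 and Cldn11 in aSMC Ai14, and the list summed to 1.64 to 2.74 CPM, 162 and 238 CPM, and 3557 to 11627 CPM in aSMC Ai47, aSMC Ai14 and cortex. The 8 astrocyte genes summed to 1186 to 1892 CPM in aSMC Ai47, 168 and 239 CPM in aSMC Ai14 and 3262 to 17601 CPM in cortex. In aSMC Ai47 most of that was the gap junction gene Gja1 at 1093 ± 201 CPM (SD, n = 6). The sorted astrocyte libraries summed to 1072 to 1715 CPM for this list and 516 to 1257 CPM for the endothelial list. Of the 11 endothelial genes, however, 10 were lower in these libraries than in cortex and 1 was higher. The median log2 difference of these 11 genes was -7.54. Against cortex the astrocyte libraries had 2 of the 8 astrocyte genes higher and 1 lower. Of all genes tested, 14.6% were higher and 19.8% lower.

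Paralogs of the members were examined in the same way. Of 6 paralogs, 1 was higher than cortex in aSMC Ai47 (Atp13a1, a P5A-type ATPase, 2.86, edgeR adjusted p = 0.0222) and 3 were lower, beside 24.1% and 26.5% of all genes. The latter were Atp13a4, a P5-type ATPase like Atp13a5 (-5.43, edgeR adjusted p = 0.000324), Higd1a, the broadly expressed relative of Higd1b (-2.58, edgeR adjusted p = 0.0139), and Ndufa4, the cytochrome c oxidase subunit related to Ndufa4l2 (-2.63, edgeR adjusted p = 0.000446). All 4 calls were lost with the aSMC Ai47 columns as 1 library (edgeR adjusted p from 0.202 to 0.439), that of Atp13a1 also with library totals alone (1.63, edgeR adjusted p = 0.192) and that of Higd1a also with the replicate block (-2.23, edgeR adjusted p = 0.0822). In aSMC Ai14 0 of 6 paralogs passed in either direction against cortex, where 3.97% of all genes were higher and 2% lower. Between the sorts 0 of 6 passed, where 9.55% of all genes were higher and 16% lower. The median of the paralogs was -1.61 in aSMC Ai47 and -0.12 in aSMC Ai14 against cortex, and -0.84 between the sorts.

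The receptors and binding partners of vitronectin were given beside Vtn. Of 6 such genes, 3 were higher than cortex in aSMC Ai47: Itgav, the alpha chain of the vitronectin receptor (2.50, edgeR adjusted p = 0.000379), Itgb1, the integrin beta 1 chain (1.43, edgeR adjusted p = 0.00654), and Plaur, the urokinase receptor (5.46, edgeR adjusted p = 0.000585), where 24.1% of all genes were higher. With library totals alone 1 of them passed (Plaur), whereas Itgav had an edgeR adjusted p of 0.177 and Itgb1 stood at 0.11 (edgeR adjusted p = 0.868), and with the aSMC Ai47 columns as 1 library none of the 3 passed (edgeR adjusted p from 0.0632 to 0.182). In aSMC Ai14 1 was higher, namely Itgb1 (3.29, edgeR adjusted p = 0.000368), beside 3.97% of all genes. None was lower than cortex in either sort, where 26.5% of all genes were lower in aSMC Ai47 and 2% in aSMC Ai14. Between the sorts, where 9.55% of all genes were higher and 16% lower, Plaur was higher in aSMC Ai47 (4.94, edgeR adjusted p = 0.0469) and Itgb1 lower (-1.85, edgeR adjusted p = 0.0132). Both calls were lost in at least 1 fit: Plaur without replicate 2, 7 or 8 of the aSMC libraries, with 4.36 to 8.62, and Itgb1 in 11 of 17 fits without 1 library and with all libraries and a cortex library as the TMM reference (-1.38, edgeR adjusted p = 0.0607). The median of this list against cortex was 0.85 in aSMC Ai47 and 1.13 in aSMC Ai14, and in aSMC Ai47 it was -0.47 with library totals alone, where the median of all genes was -1.50.

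Genes whose pattern was most like that of each member were named by Pearson's r of log2(CPM + 0.5) over 12 points, with the 6 aSMC Ai47 columns averaged into 1 point. These points share libraries and scaling and fall into the 4 groups, so r is a description. For Vtn they were Mical2 (0.987), Mtcl1 (0.987) and Amotl1 (0.985). For Cspg4 they were Ppfibp2 (0.979), Tbx18 (0.963) and Col1a2 (0.962), and Ndufa4l2 had 0.946 with Cspg4. For Atp13a5 they were Ece1 (0.983), Tmf1 (0.982) and Ets1 (0.980), for Ndufa4l2 Ccn4 (0.981), C1qtnf7 (0.979) and Myom1 (0.975), and for Higd1b Lrp2bp (0.979), Slc19a1 (0.954) and Capn12 (0.953). Anpep was nearest to Arhgef5 (0.959), Kdm4b (0.917) and Has3 (0.911). Between members, r was 0.932 for Atp13a5 and Vtn, 0.753 for Atp13a5 and Cspg4 and 0.424 for Atp13a5 and Anpep. The nearest genes were picked for their high r, so their values cannot show whether the members are less alike.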

How the data were processed

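Bulk mRNA of 17 mouse brain samples was sequenced, and the authors deposited 1 matrix of raw counts per gene symbol for 21640 genes. The labels name RNeasy extraction, NuGEN Ovation kits, the GRCm38 genome and, in the submitters' processing notes, Salmon 1.4.0, with Trim Galore 0.6.7 and the report tools FastQC 0.11.9 and MultiQC 1.13, whereas the study's methods name a TruSeq kit, TopHat and htseq-count. Annotation release and strand setting: not given in the sources used here. Whole-number counts with no gene length or depth correction were used as deposited. Kits that amplify RNA and reads that fall in a few abundant genes both affect the counts, and no molecular identifiers are mentioned.

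A single edgeR 4.0.16 quasi-likelihood model (R 4.3.3) was fitted to the 17 libraries with 4 groups, TMM scaling and filterByExpr at its default minimum count of 10. It tested 14927 genes in 6 comparisons, with Benjamini-Hochberg adjusted p under 0.05 as the threshold over all genes tested in each comparison. The SE is the absolute log2 difference over the square root of the F statistic. CPM used the TMM-scaled library size, and GENCODE M21 exon lengths were matched by symbol (97.3% of genes). The members and gene lists were chosen with earlier results of these data known. Named genes were all members, genes of the listed pericyte genes, paralogs and vitronectin partners, and the 3 genes most like each member (pseudocount 0.5). Listed cell type markers were summed per library. For 1 listed gene the result is not reported here, and its list was counted without it. The within-library shares and ratios to Vtn, the fit without aSMC Ai47 and the fit with a cortex library as the TMM reference were added after seeing the data. Alternatives covered scaling, filters, DESeq2 1.42.0, the groups in the fit, a replicate block and leaving out each library. Scripts were tested on simulated data. Same-numbered replicates of different groups did not deviate together (r from -0.0505 to 0.0323), so numbers were not treated as pairs. Plots were drawn with matplotlib 3.10.9 and tables made with pandas 2.3.3, scipy 1.17.1 and numpy 2.4.6 in Python 3.11.15.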

Additional observations from a re-analysis of the deposited data

Results flagged for a closer look

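Of 12 groups of levels checked (6 members in aSMC Ai47 and in cortex), 4 had 1 library apart from the others by Dixon's criterion, which by chance singles out about 1 group in 20. Higd1b reached 9.53 CPM in replicate 6 of aSMC Ai47, and the mean of 3.77 CPM became 2.62 CPM without it. Higd1b reached 3.87 CPM in replicate 3 of cortex, Cspg4 reached 32.4 CPM in replicate 4 of cortex, and Ndufa4l2 reached 1.38 CPM in replicate 4 of cortex.

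For 2 members the sorts differed in the edgeR model. Both sorts are set against the same cortex libraries, so a test of their unequal difference from cortex is the comparison between the sorts given above and adds no further evidence. Atp13a5 was 4.32 higher on the log2 scale in aSMC Ai47 than in aSMC Ai14, and all 6 aSMC Ai47 libraries were above both aSMC Ai14 libraries. For Anpep the value was -4.48, with all 6 aSMC Ai47 libraries below both aSMC Ai14 libraries, and the call held in 11 of 17 fits without 1 library.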

How the results depend on the processing

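Of 1005 values of the members' differences under an alternative, 916 kept direction and side of the threshold. Anpep became lower than cortex in aSMC Ai47 with relative log expression scaling, library totals alone, DESeq2 and only the 2 groups compared, so that 1 member was lower in place of 0 (0 to 1 without 1 library). For aSMC Ai14 against cortex, 1 member in place of 3 was higher with the aSMC Ai47 columns as 1 library or with the 11 libraries without aSMC Ai47 (1 to 3 without 1 library). Between the sorts, 2 members (Vtn and Atp13a5) in place of 1 were higher in aSMC Ai47 with DESeq2 and with only the 2 groups compared (1 to 2 without 1 library), and 0 in place of 1 were lower with the aSMC Ai47 columns as 1 library (0 to 1 without 1 library). Astrocytes against cortex gave 3 lower members with only the 2 groups compared and 2 (Atp13a5 and Vtn) with the replicate block, in place of 5, and aSMC Ai14 against astrocytes gave 0 higher members with only the 2 groups compared, in place of 6, in a fit that called 0 of all 12864 genes tested in either direction. The replicate block changed no call of a member in aSMC Ai47 against cortex or against astrocytes.

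The Cspg4 difference between the sorts, -0.07, turned positive with relative log expression scaling (0.32), without mitochondrial genes (0.47), with no filter (0.30), with 1 CPM in 2 libraries (0.34), with DESeq2 (0.32), with only the 2 groups (0.0670), with the aSMC Ai47 columns as 1 library (0.19) and with the cortex reference library (0.44), and ran from 0.13 to 0.57 without 1 library. The fits without 1 library all took a cortex library as the TMM reference, in place of an astrocyte library. With library totals alone Vtn became -1.09 and Ndufa4l2 -1.90 between the sorts. The cause of the other changes was not tested. In cortex and astrocytes, levels near 1 CPM rest on few reads.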
